A study of Mus musculus with 8 samples.

Results

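The Notch receptors Notch1, Notch2, Notch3 and Notch4, the ligands Dll1, Dll4 and Jag1, and the targets Hey1, Hes1 and Dtx1 were followed through the cells of mouse inguinal fat. These 10 genes were chosen by symbol from the 32285 genes in the tables, with earlier results of the same data known, and Dtx1 was chosen by a measured value, its lower level in summed B cells. Stromal vascular cells came from the inguinal white adipose tissue (iWAT) of mice labelled C57BL/6 (C57BL/6J in the study's methods) in 8 droplet libraries, 4 from mice fed ad libitum (Ad-Lib 1, 3, 5 and 7) and 4 from mice fed in a pair of windows each night (twice-a-night, TAN 2, 4, 6 and 8). The stromal vascular fraction is what is left of digested fat after the floating adipocytes have been removed. The labels give an age of 8 weeks for both groups, whereas the study describes male mice several months old that had been on the regimen for months. Nothing in the labels names the mice behind each library, so the p-values below measure the spread between libraries.

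Notch is a receptor that a ligand on a neighbouring cell activates. Binding exposes the receptor to proteases, the intracellular part is released, and with the DNA-binding protein Rbpj it switches on targets such as the Hes and Hey repressors. In vessels, Dll4 and Notch1 govern sprouting and arterial identity, and Jag1 and Notch3 act between endothelium and the mural cells around it. In lymphocytes, Notch1 directs T cell development and Notch2 directs marginal zone B cells.

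Cells were assigned by marker panels that hold none of the 10 genes. A droplet entered a lineage with at least 3 of 8 panel genes and a lead of 2 over every other panel. Within the endothelium, the arterial gate had Sema3g or Gja5, the venous gate had Ackr1 or Selp, and the capillary gate had at least 2 unique molecular identifiers (UMIs) of Gpihbp1 and none of the other 4 genes. After the quality filter, 36370 cells remained, of which 5389 were capillary, 2355 arterial, 161 venous, 720 mural, 9803 progenitor, 2783 B, 4044 T and 4074 macrophage cells. UMIs were summed per library and gate, and levels are given as counts per 1e6 UMIs of the gate (CPM). CPM is not corrected for transcript length, so levels were compared between cells and never between genes. Within a summed gate, fewer cells with a transcript and less transcript per cell cannot be told apart.

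The libraries held 25320800 to 37140950 UMIs. They shared between 5 and 16 cell barcodes per pair, at most 0.284% of the smaller library. The median UMI count per capillary cell was 3672 to 3787 under Ad-Lib and 3601 to 4098 under TAN, and that per arterial cell was 4331 to 4902 and 4165 to 4786. The median mitochondrial share of capillary cells was 1.66 to 2.11% under Ad-Lib and 2.57 to 3.29% under TAN, without overlap. Some gates were thin, with 24 to 703 B cells, 102 to 1574 T cells and 9 to 27 venous cells per library, and a library entered a gate with at least 10 cells.

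On the genome build GRCm38 (GENCODE M21), the receptors lie at chr2:26457903-26516663 (Notch1, minus strand), chr3:98013527-98150361 (Notch2, plus), chr17:32120820-32166852 (Notch3, minus) and chr17:34564268-34588503 (Notch4, plus). The ligands lie at chr17:15367354-15376872 (Dll1, minus), chr2:119325784-119335962 (Dll4, plus) and chr2:137081456-137116644 (Jag1, minus). The targets lie at chr3:8663359-8667256 (Hey1, minus), chr16:30064384-30067796 (Hes1, plus) and chr5:120680202-120711927 (Dtx1, minus). Genes on the opposite strand overlap Notch1, Notch3, Notch4, Dll1 and Dll4, and the sources used here do not state whether counting used strand.

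Promoter windows from RefSeq (GRCm38.p6, 250 bases before to 50 after the start) were given for 8 of the 10 genes, and 3 are shown because their genes marked separate lineages below: Dll4 the endothelium, Notch3 the mural cells and Dtx1 the lymphocytes. Capitals mark the class C site CACGCG (on either strand), a sequence that Hes and Hey proteins are known to bind. The windows are chr2:119325534-119325833 (plus), chr17:32166841-32167140 (minus) and chr5:120711620-120711919 (minus), each written 5′ to 3′ along its gene.
Dll4: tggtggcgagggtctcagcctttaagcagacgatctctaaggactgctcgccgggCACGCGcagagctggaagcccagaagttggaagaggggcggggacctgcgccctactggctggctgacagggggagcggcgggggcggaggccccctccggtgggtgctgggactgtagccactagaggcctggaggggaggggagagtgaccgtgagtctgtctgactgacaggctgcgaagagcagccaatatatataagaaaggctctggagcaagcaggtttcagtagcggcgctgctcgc
Notch3: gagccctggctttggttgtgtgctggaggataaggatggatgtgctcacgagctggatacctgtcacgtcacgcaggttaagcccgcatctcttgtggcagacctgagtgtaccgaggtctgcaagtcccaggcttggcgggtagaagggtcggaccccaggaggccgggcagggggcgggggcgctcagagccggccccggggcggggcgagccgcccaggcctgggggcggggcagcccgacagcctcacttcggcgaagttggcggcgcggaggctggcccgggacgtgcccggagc
Dtx1: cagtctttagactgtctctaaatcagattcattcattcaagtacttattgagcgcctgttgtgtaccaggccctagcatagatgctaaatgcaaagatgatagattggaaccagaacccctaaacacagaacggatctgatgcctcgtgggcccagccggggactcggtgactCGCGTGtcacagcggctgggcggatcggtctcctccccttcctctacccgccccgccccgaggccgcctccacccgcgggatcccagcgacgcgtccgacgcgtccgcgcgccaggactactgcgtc
The class C site was found in the windows of 5 of the 8 genes (Notch2, Dll1, Dll4, Jag1 and Dtx1) and in 9.27% of all 32851 promoters of the same length. Among the 13607 promoters at least as rich in G and C as the poorest of the members' windows, 19.2% held it. The core of the Rbpj site, TGGGAA, was in none of the members' 9 windows, in 25.6% of all promoters and in 21.3% of those 13607. A match of letters is a description of these windows only, and expression was the sole measurement.

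Across the gates, each gene had its own set of cells. The heat map of medians over libraries shows Notch3 in mural cells, Notch4 and Dll4 in endothelium, Hey1 in arteries and Dtx1 in lymphocytes. These levels describe the cells and were not tested.

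**Figure D1:**
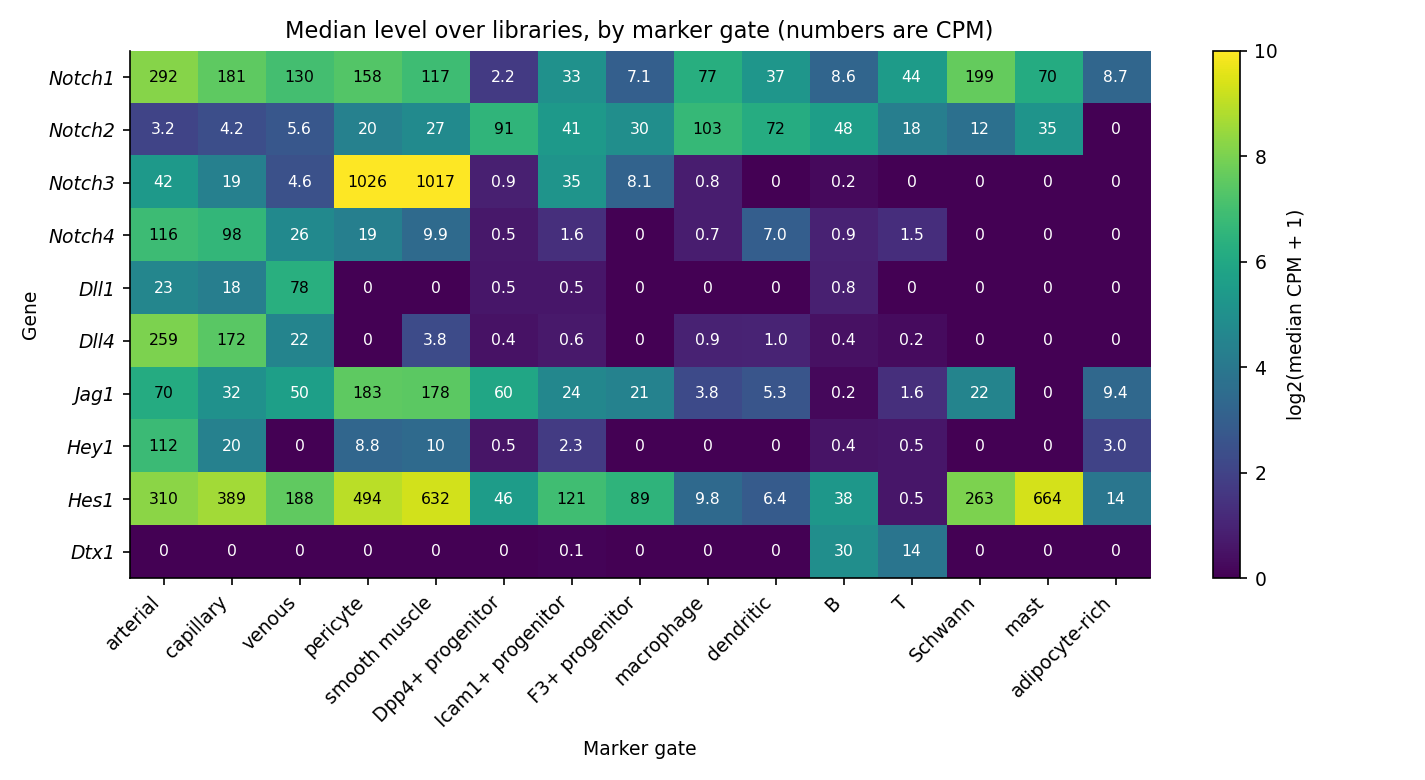
Median level of each member (rows) over the libraries in each marker gate (columns), in CPM, with colour on a log2 scale. Notch3 reached 1026 CPM in pericytes and 1017 CPM in smooth muscle cells against 41.7 CPM in arterial cells, and Dtx1 had 30.1 CPM in B and 13.9 CPM in T cells and a median of at most 0.0656 CPM in any other gate shown.

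Of the receptors, Notch1 was highest in arterial endothelium, with a lowest, median and highest library of 250, 292 and 380 CPM. Schwann cells (36.2, 199 and 264 CPM) and capillaries (155, 181 and 234 CPM) followed, and these 3 ranges overlapped from one gate to the next. Smooth muscle cells had 99.7, 117 and 210 CPM, and no macrophage library (48.2 to 94.4 CPM) reached them. Among progenitors, Notch1 was at 33.1 ± 7.86 CPM (SD, n = 8) in the Icam1+ gate, where committed preadipocytes are found, and at 2.40 ± 0.92 CPM in the Dpp4+ gate of earlier interstitial progenitors. It was higher in Icam1+ cells in 8 of 8 libraries.

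Notch2 had the opposite order in the progenitors, at 88.2 ± 13.1 CPM in Dpp4+ and 39.1 ± 3.43 CPM in Icam1+ cells, and was higher in Dpp4+ cells in 8 of 8 libraries. Its highest gate was the macrophages (71.6, 103 and 113 CPM), whose range overlapped that of Dpp4+ progenitors (59.6, 91.4 and 99.0 CPM). Endothelial levels were low, at 2.70 to 6.60 CPM in capillaries (94 UMIs) and 0.692 to 6.16 CPM in arteries (45 UMIs).

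Notch3, the receptor of mural cells, had 807 to 1277 CPM in pericytes and 816 to 1296 CPM in smooth muscle cells, with no other gate inside those ranges. Arterial cells came next at 15.9, 41.7 and 71.9 CPM. Of the 531 Notch3 UMIs in arterial cells, 5 were in the 1315 of 2355 cells that had no UMI of any mural panel gene. In capillaries it was 19 of 444 UMIs in 3284 of 5389 cells. Notch3 in the endothelial gates thus lay almost wholly in droplets that also held mural transcripts.

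Icam1+ progenitors had a similar Notch3 range, 17.5, 35.0 and 52.1 CPM, but a different distribution over cells. Of 1641 UMIs, 936 were in the 3067 of 4841 cells without a mural panel UMI. RNA carried over from mural cells, in the ratio of Notch3 to the mural panel within each library, would give 6.04 to 11.8 CPM there. In Dpp4+ progenitors Notch3 was at 1.37 ± 1.49 CPM (SD, n = 8).

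Notch4, a receptor of endothelium, had 105, 116 and 158 CPM in arteries, 87.6, 98.2 and 109 CPM in capillaries and 9.90, 25.8 and 43.9 CPM in veins. The arterial and capillary ranges overlapped, and the venous range lay below both.

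Of the ligands, Dll4 followed the same order: 186, 259 and 285 CPM in arteries, 108, 172 and 213 CPM in capillaries and 9.76, 21.7 and 42.3 CPM in veins. The 23 venous UMIs were few, but arteries and capillaries each exceeded veins in 7 of 7 libraries. Dll1 ran the other way and was highest in veins, at 48.8, 77.7 and 110 CPM, against 17.3, 23.4 and 31.1 CPM in arteries and 11.3, 18.3 and 34.8 CPM in capillaries. The venous mean of 76.5 ± 20.5 CPM (SD, n = 7) was 3.14 times the arterial one, with all 7 libraries higher, on a total of 90 venous UMIs. Dll4 and Dll1 thus had opposite orders between arteries and veins.

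Jag1, which endothelium and mural cells present to each other, was highest in pericytes (158, 183 and 261 CPM) and smooth muscle (128, 178 and 233 CPM). Arterial cells (45.7, 69.6 and 95.2 CPM) and Dpp4+ progenitors (47.0, 59.5 and 68.0 CPM) came next with overlapping ranges. Dpp4+ progenitors exceeded Icam1+ progenitors in 8 of 8 libraries, by 2.22 times.

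Of the targets, Hes1 was broad, with medians of 664 CPM in mast cells (5 libraries), 632 CPM in smooth muscle, 494 CPM in pericytes, 389 CPM in capillaries and 310 CPM in arteries, and each range overlapped the next. Macrophages (4.71 to 19.6 CPM), dendritic cells (2.26 to 8.49 CPM) and T cells (0 to 1.41 CPM) had the least. Hey1, a target tied to arterial identity, had 96.5, 112 and 164 CPM in arteries, above every other gate. Dtx1, a ubiquitin ligase and Notch target of lymphocytes, lay almost wholly in B and T cells.

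For each gene, the 3 genes with the most similar pattern were sought by Pearson's r of log2(CPM + 1) over 15 gate means, among 14470 genes with at least 100 UMIs. The points share libraries and differ in depth, and the values are descriptions. Notch3 was matched by the 3 guanylyl cyclase subunits Gucy1a1 (r = 0.99), Gucy1b1 (0.98) and Gucy1a2 (0.98). Dll4 was matched by Eva1a (0.99), Car4 (0.98) and Gm14207 (0.98), the last of which overlaps Dll4 on the other strand. Notch4 had Gpr4 (0.96), the panel gene Emcn (0.94) and Flt4 (0.94), and Dtx1 had Lta (1.00), Tmem108 (1.00) and the B cell kinase gene Blk (0.99). Dll1 had Hoxb9 (0.98), Rassf9 (0.97) and Upp1 (0.97). Jag1 had Klhdc8b (0.96), Phactr1 (0.95) and Csnk1e (0.94). Looser matches were Sertad2, Plxnd1 and Cyb5r1 for Notch1 (0.94, 0.89 and 0.88), Rtl6, Taok3 and H13 for Notch2 (0.89, 0.87 and 0.87), Pcnx, Map4k3 and Ercc1 for Hey1 (0.92, 0.91 and 0.90) and Mapk12, Pcm1 and Maco1 for Hes1 (0.93, 0.90 and 0.90).

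Arterial and capillary cells of the same libraries were compared next, with the library as a block, by the quasi-likelihood method of edgeR, whose p-values were adjusted (Benjamini-Hochberg) over 9746 genes. Calls needed an adjusted p under 0.05 plus a 1.5-fold or larger change, and 6.79% of genes tested were called. Of the 8 members that passed the filter on low counts, 4 were called, and all 4 were higher in arteries. The median change of the 8 was 0.62 on the log2 scale against -0.01 over all genes.

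Hey1 was 6.00-fold higher in arterial than capillary cells (log2 2.59 ± 0.10 SE, edgeR adjusted p = 1.43e-16), at 119 ± 23.7 against 19.6 ± 4.03 CPM (SD, n = 8). Jag1 was 2.10-fold higher (log2 1.07 ± 0.09, adjusted p = 3.32e-10) and Notch1 1.64-fold higher (log2 0.72 ± 0.04, adjusted p = 1.68e-12). Every library had more of all 3 in its arterial cells. Notch3 was 2.15-fold higher (log2 1.11 ± 0.11, adjusted p = 1.25e-08), and the mural panel moved with it, at 0.0806% of UMIs in arterial and 0.0488% in capillary cells.

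Dll4 and Notch4 were also higher in arteries in 8 of 8 libraries, by 1.44-fold (edgeR adjusted p = 1.11e-07) and 1.25-fold (adjusted p = 5.09e-05), which is under the 1.5-fold limit. Hes1 was 1.20-fold lower (adjusted p = 6.06e-05, lower in 7 of 8 libraries), and Dll1 missed the threshold (log2 0.35 ± 0.12, adjusted p = 0.0506). Of 45 further pathway genes, 38 were tested and 1 (2.63%) was called, a smaller share than the 6.79% of all genes. Lfng, a glycosyltransferase that tunes ligand choice, was lower in arteries (log2 -0.70 ± 0.12, edgeR adjusted p = 6.49e-05), at 14.7 against 24.0 CPM. Jag2, another ligand, was higher by 0.56 ± 0.07 on the log2 scale and Furin, the protease that cleaves the receptor precursor, by 0.39 ± 0.07, both under the 1.5-fold limit (edgeR adjusted p = 1.30e-06 and 9.59e-05).

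**Figure D2:**
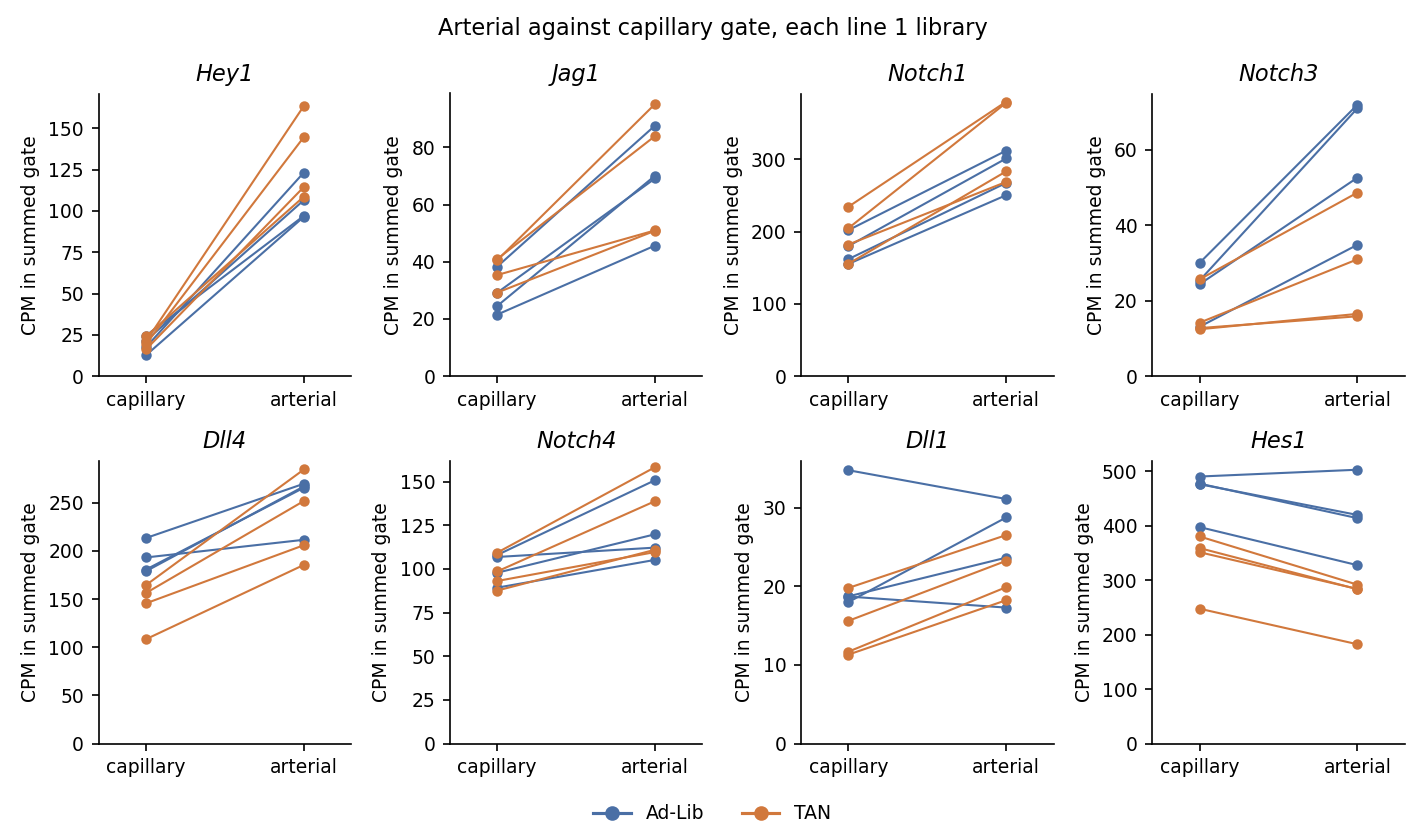
Level of 8 members in CPM in the capillary and arterial sums, each line joining the 2 gates of 1 library and coloured by feeding group. Hey1, Jag1, Notch1, Notch3, Dll4 and Notch4 rise from capillary to arterial in all 8 libraries, and Hes1 falls in 7 of 8.

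To see whether timed feeding altered the pathway in vessels, TAN libraries were compared with Ad-Lib libraries within each gate, again with edgeR. The Notch target Hes1 was lower in TAN arteries, at 260 ± 52.1 CPM against 416 ± 71.5 CPM (SD, n = 4 each). Nrarp, a target that feeds back on Notch, was lower in TAN capillaries, as 1 of 38 further pathway genes tested (2.63%, near the 2.35% of all genes). Hey1, the receptors and the ligands were not called in either gate.

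In arteries, Hes1 had 327, 414, 420 and 503 CPM in Ad-Lib 1, 3, 5 and 7 and 284, 283, 182 and 292 CPM in TAN 2, 4, 6 and 8, an order kept for all later lists of 4 values. All 4 TAN libraries lay below all Ad-Lib libraries, with TAN 6 the lowest. The log2 change was -0.62 ± 0.15, or 1.54-fold (edgeR adjusted p = 0.0261). It was the only 1 of 8 members tested that was called in arteries, where 2.16% of 8978 genes were. An exact permutation test of CPM gave p = 0.0286, the smallest that 4 against 4 libraries allow, or 0.219 after adjustment over 46 such tests.

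This call was marginal. Without Ad-Lib 3 its edgeR adjusted p was 0.0688, without Ad-Lib 7 it was 0.0862 and without TAN 6 it was 0.0509, and with other limits for the arterial gate it was 0.114. The log2 change stayed between -0.71 and -0.47 in all 15 alternatives.

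A list of 12 genes that tissue digestion is known to induce made up 1.29 to 1.62% of arterial UMIs under Ad-Lib and 0.545 to 1.55% under TAN. TAN 6 was the lowest for this list as for Hes1, but TAN 4 (1.55%) lay above Ad-Lib 1, 3 and 5 for the list and below every Ad-Lib library for Hes1. The median mitochondrial share of arterial cells was 1.76 to 2.18% under Ad-Lib and 2.47 to 3.27% under TAN, without overlap. The part of either in the Hes1 result was not tested. Hes1 was about as much lower in arterial cells without any mural panel UMI, at 392 ± 59.4 CPM under Ad-Lib and 242 ± 76.9 CPM under TAN (SD, n = 4 each), and these groups did not overlap.

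In capillaries, Hes1 was at 397, 477, 476 and 490 CPM under Ad-Lib and 351, 359, 248 and 380 CPM under TAN, again without overlap. The log2 change was -0.44 ± 0.13 (edgeR adjusted p = 0.0668), so it was not called. The difference between the arterial and the capillary change was -0.17 ± 0.08 (edgeR interaction, adjusted p = 0.716), and 0.041% of 9746 genes and 0 of 8 members were called for such a difference, with 4 members and 6.90% of genes at an unadjusted p under 0.05.

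Of the 9 members tested in capillaries, 0 were called by edgeR, where 2.35% of 10129 genes were. Unadjusted p was under 0.05 for 5 of the 9 and for 16.7% of genes, and DESeq2 called 0 of the 9 and 2.07% of genes. Dll4 was at 193, 213, 181 and 179 CPM under Ad-Lib and 146, 156, 108 and 165 CPM under TAN. The groups did not overlap, but the log2 change of -0.40 ± 0.13 missed the threshold (edgeR adjusted p = 0.0958). Dll1 changed by -0.62 ± 0.22 (adjusted p = 0.16), with Ad-Lib 5 at 34.8 CPM and the other Ad-Lib libraries at 18.0 to 18.7 CPM, and Jag1 by 0.37 ± 0.15 (adjusted p = 0.232). The median over the 9 was -0.18 against -0.00 over all genes.

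In arteries, Dll4 differed by -0.09 ± 0.13 (95% interval -0.33 to 0.16) and Hey1 by 0.37 ± 0.13, both in log2 (edgeR adjusted p = 0.824 and 0.141). Notch1 differed by 0.25 ± 0.11 (adjusted p = 0.287). Notch3 was at 70.9, 52.6, 34.8 and 71.9 CPM under Ad-Lib and 30.9, 16.5, 15.9 and 48.6 CPM in TAN arteries, with overlap and a log2 change of -0.98 ± 0.28 (adjusted p = 0.0686). The mural panel moved in the same direction, from 0.0638 to 0.134% of UMIs in Ad-Lib to 0.0456 to 0.0736% in TAN arteries, with a lower TAN mean for 8 of 8 panel genes. In arterial cells without a mural UMI, Notch3 was at 1.00 ± 0.74 and 0.806 ± 0.93 CPM (SD, n = 4 each).

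Among the 45 further pathway genes, 38 were tested in capillaries, 0 were called higher and 1 lower, with a median change of -0.01. That share of 2.63% is near the 2.35% of all genes, so the count shows nothing particular to the list. The called gene was Nrarp, at 142, 146, 128 and 138 CPM under Ad-Lib and 83.9, 110, 64.6 and 98.5 CPM in TAN capillaries. Every TAN library lay below every Ad-Lib library, with a log2 change of -0.61 ± 0.14 (edgeR adjusted p = 0.0184). The call was lost without Ad-Lib 1 (adjusted p = 0.0574), Ad-Lib 3 (0.0557) or TAN 2 (0.0682) and fell under 1.5-fold without TAN 6 (log2 -0.48). The digestion list was at 1.39 to 1.60% of capillary UMIs under Ad-Lib and 0.686 to 1.53% under TAN. The mural panel was at 0.0449 to 0.0720% and 0.0260 to 0.0558%, with a lower TAN mean for 7 of 8 genes. The mitochondrial share of capillary cells, given above, did not overlap between the groups. The part of these in the Nrarp result was not tested. Rbpj changed by -0.28 ± 0.11 and Dtx3l, a ubiquitin ligase gene, by -0.33 ± 0.14 (edgeR adjusted p = 0.211 and 0.227).

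In arteries, 36 of the 45 were tested and 0 were called, although Nrarp had an edgeR adjusted p of 0.00776. It was at 165, 152, 164 and 164 CPM under Ad-Lib and 94.2, 118, 105 and 127 CPM in TAN arteries, without overlap, and its log2 change of -0.50 ± 0.10 was under the 1.5-fold limit. Jag2 changed by 0.35 ± 0.12 (adjusted p = 0.121) and Poglut1, which glycosylates the receptors, by 0.50 ± 0.19 (adjusted p = 0.2).

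**Figure D3:**
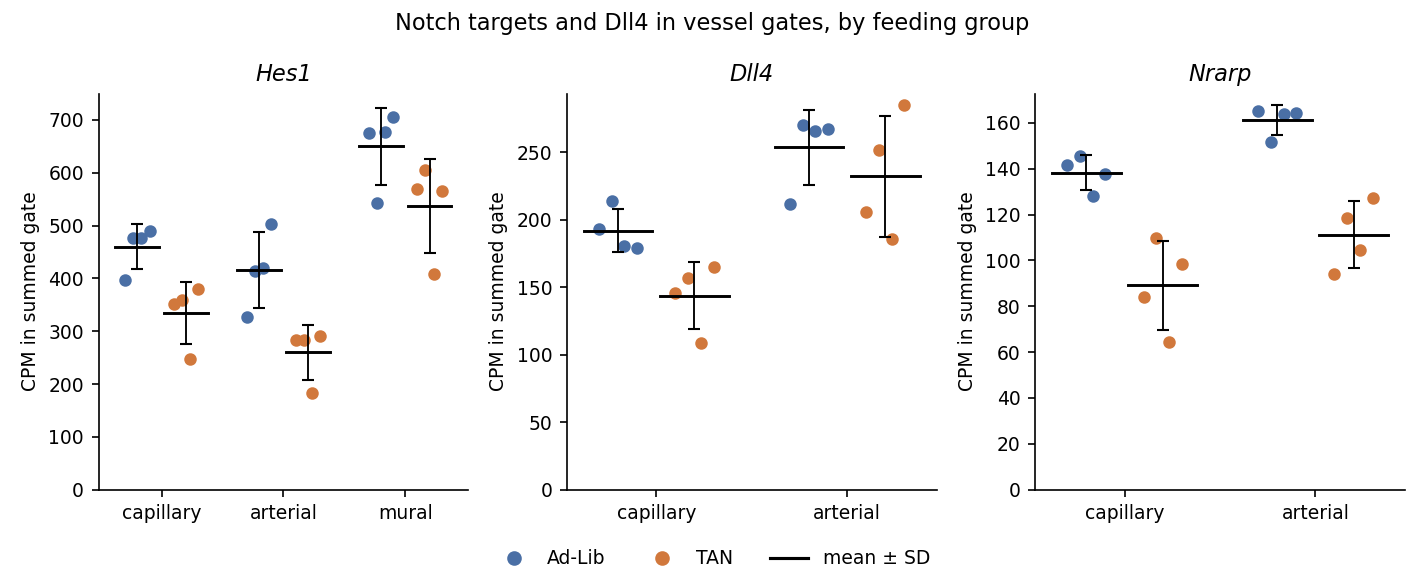
Hes1, Dll4 and Nrarp in CPM of the summed gates, 1 point per library, with mean and SD over the 4 libraries of each group. Hes1 and Nrarp do not overlap between Ad-Lib and TAN in capillaries or arteries, and Dll4 does not overlap in capillaries only.

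Mural cells, the Notch3 cells of the tissue, showed no called member among 5 tested by edgeR, where 1.93% of 5704 genes were called (unadjusted p under 0.05 for 2 members and 12.1% of genes; DESeq2 called 0 members and 0.964% of genes). Notch3 itself was at 949, 932, 1256 and 1059 CPM under Ad-Lib and 913, 876, 1100 and 1208 CPM in TAN mural cells, a log2 difference of -0.08 ± 0.13 (95% interval -0.34 to 0.18). Hes1 was at 650 ± 72.7 and 537 ± 88.2 CPM (SD, n = 4 each), with a log2 change of -0.30 ± 0.14 (edgeR adjusted p = 0.352). Notch1 had 116 to 141 CPM under Ad-Lib and 142 to 209 CPM under TAN, which did not overlap, with a log2 change of 0.35 ± 0.15 (adjusted p = 0.304). The endothelial panel took 0.0165 to 0.0239% of mural UMIs under Ad-Lib and 0.0208 to 0.0502% under TAN, with a higher TAN mean for 7 of 8 genes, and the digestion list took 2.00 to 2.62% and 1.19 to 2.33%. Their part in the mural values was not tested. Of the further pathway genes, 0 of 31 tested were called. Among those with the smallest p were Tle1, a co-repressor (-0.63 ± 0.24), and Dtx3l (0.65 ± 0.31), with edgeR adjusted p of 0.205 and 0.388.

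Progenitors as a whole had 0 of 7 members called by edgeR, where 0.543% of 12343 genes were (unadjusted p under 0.05 for 2 members and 13.7% of genes; DESeq2 called 1 member, Hey1, and 1.22% of genes). The 2 members were Hey1 and Notch3, both with higher TAN means. Hey1 was at 0.940, 0.590, 1.57 and 1.06 CPM under Ad-Lib and 1.53, 3.33, 3.39 and 2.43 CPM in TAN progenitors, from 139 UMIs (log2 1.28 ± 0.32, edgeR adjusted p = 0.0888). Notch3 changed by 0.70 ± 0.23 (adjusted p = 0.186). In the further pathway genes, 0 of 39 were called, and the smallest p belonged to Tle1 (-0.45 ± 0.13), the Notch co-activator Maml2 (-0.29 ± 0.09) and the acetyltransferase Kat2b (-0.21 ± 0.07), with adjusted p of 0.115, 0.157 and 0.174.

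The same 2 genes were called in the Icam1+ progenitors, a gate that was tested after the data had been seen. There 2 of 6 members were called, both higher, where 1.5% of 11366 genes were called. Notch3 was at 22.1, 17.5, 39.2 and 26.6 CPM under Ad-Lib and 50.7, 52.1, 30.8 and 49.4 CPM under TAN, a rise in log2 of 0.79 ± 0.19 (edgeR adjusted p = 0.0489). Ad-Lib 5 lay above TAN 6, so the groups overlapped. Hey1 was at 1.34, 0.966, 2.19 and 1.70 CPM under Ad-Lib and 2.44, 5.73, 4.35 and 3.60 CPM under TAN, without overlap, a rise of 1.28 ± 0.32 (adjusted p = 0.0491) on 115 UMIs in all. It lay near the limit of the filter on low counts and passed it mainly through the TAN libraries, where it was higher, so its call is weak support for a rise. Neither call was firm: that of Hey1 was lost without any 1 of the 8 libraries (adjusted p 0.0504 to 0.156) and that of Notch3 without any 1 of 6 (0.0903 to 0.157), all but Ad-Lib 5 and TAN 6.

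Both genes were also measured in cells without transcripts of the neighbouring lineage. Notch3 in Icam1+ cells with no mural panel UMI was at 24.6 ± 10.7 CPM under Ad-Lib and 44.5 ± 7.43 CPM under TAN (SD, n = 4 each), and these groups overlapped. The mural panel took 0.00713 to 0.00757% of UMIs under Ad-Lib and 0.00675 to 0.0124% in TAN Icam1+ cells, with a higher TAN mean for 6 of 8 genes. Hey1 in Icam1+ cells with no endothelial panel UMI was at 1.51 ± 0.43 and 4.20 ± 1.64 CPM, on 104 of its 115 UMIs, and 7 of 8 endothelial panel genes had a higher TAN mean in the gate. That panel took 0.00114 to 0.00190% of UMIs in Ad-Lib libraries and 0.00242 to 0.00348% in TAN libraries, without overlap. Hey1 carried over from endothelium in ratio to that panel would give 0.0569 to 0.265 CPM. The digestion list was lower in TAN Icam1+ cells, at 2.13 to 2.43% against 2.57 to 3.24% of UMIs, and the median mitochondrial share was 1.66 to 2.15% under Ad-Lib and 1.93 to 2.43% under TAN. The part of RNA from other lineages, of digestion and of cell quality in these 2 calls was not tested.

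Hes1 in the Icam1+ gate was at 115 ± 26.2 CPM under Ad-Lib and 116 ± 18.8 CPM under TAN, and the fitted log2 change after TMM scaling had the opposite sign to the difference in CPM (-0.03 ± 0.14, edgeR adjusted p = 0.954, 95% interval -0.29 to 0.24). Of the further pathway genes, 0 of 37 were called. Tle1 had an adjusted p of 0.0164, with 23.6, 25.6, 32.5 and 32.1 CPM under Ad-Lib and 19.5, 19.2, 21.7 and 21.2 CPM under TAN, but its log2 change of -0.51 ± 0.10 was under the 1.5-fold limit. Kat2b changed by -0.27 ± 0.08 and Maml2 by -0.36 ± 0.12 (edgeR adjusted p = 0.0819 and 0.152). In Dpp4+ progenitors, also tested after the data had been seen, 0 of 4 members and 0.326% of 10725 genes were called by edgeR. Unadjusted p was under 0.05 for 1 of them, Hes1 (log2 -0.39 ± 0.14, adjusted p = 0.307), and for 10.5% of genes, and DESeq2 called 0 members and 0.615% of genes. There 0 of 34 further pathway genes were called, and among those with the smallest p were the ubiquitin ligases Mib2 (0.30 ± 0.10) and Fbxw7 (-0.39 ± 0.16), at adjusted p of 0.272 and 0.391.

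**Figure D4:**
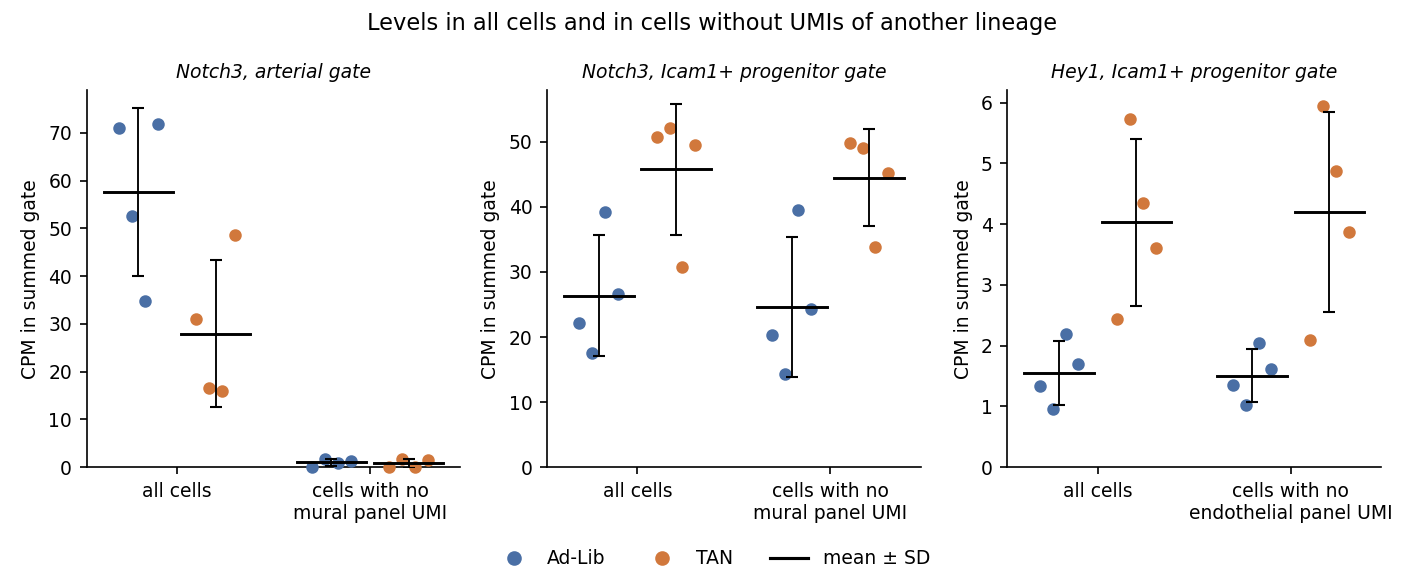
Notch3 in arterial and Icam1+ progenitor cells and Hey1 in Icam1+ progenitor cells, in CPM, in all cells of the gate and in those with no UMI of the mural or endothelial panel. Points are libraries with mean and SD over 4. Arterial Notch3 drops to at most 1.76 CPM in cells without mural UMIs, whereas Icam1+ Notch3 keeps means of 24.6 CPM under Ad-Lib and 44.5 CPM under TAN.

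In the lymphocytes, Dtx1 in B cells was the value that led to its choice, and the members in the B gate are given as values without a test. Dtx1 was at 10.9, 50.5, 47.1 and 50.4 CPM under Ad-Lib and 12.8, 25.8, 29.6 and 30.6 CPM in TAN B cells, from 390 UMIs. Ad-Lib 3, 5 and 7 lay above every TAN library, and Ad-Lib 1 lay below every TAN library. Ad-Lib 1 rests on 25 B cells and 3 Dtx1 UMIs, Ad-Lib 7 on 24 B cells and 5 UMIs, and TAN 2 on 147 B cells and 10 UMIs. The log2 ratio of the TAN to the Ad-Lib mean was -0.68 with all libraries, -0.997 without Ad-Lib 1 and -0.47 without TAN 2.

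The same library stood apart in the state of its B cells. The plasma cell genes Jchain, Xbp1 and Sdc1 together were at 25007 CPM in Ad-Lib 1 and at 888 to 7116 CPM in Ad-Lib 3, 5 and 7, against 41.5 to 8654 CPM under TAN. The highest TAN value was that of TAN 2, the TAN library with the least Dtx1. A list of 6 follicular B cell genes was at 363 CPM in Ad-Lib 1, 1643 to 2110 CPM in the other Ad-Lib and 1384 to 2212 CPM under TAN. Notch2 and Hes1 were both at 3.63 CPM in Ad-Lib 1, from 1 UMI each, against 30.8 to 60.5 CPM and 24.4 to 45.1 CPM in the other 7 libraries. The Notch2 value of Ad-Lib 7, the highest, rests on 6 UMIs. In the 1661 B cells without a T panel UMI, Dtx1 was at 51.7 ± 33.6 CPM under Ad-Lib and 23.5 ± 14.4 CPM under TAN (SD, n = 4 each). Of these values, Ad-Lib 7 (95.4 CPM) rests on 4 UMIs in 12 cells, Ad-Lib 1 on 3 UMIs in 17 cells and TAN 2 on 1 UMI. Cd2 had the most UMIs of the T panel in the B gate, 1403 against 181 for Lck, the next. Its means were alike, 120 CPM under Ad-Lib and 124 CPM under TAN, so this filter rests mainly on Cd2. The part of these states in the Dtx1 values was not tested. A list of B1 and memory genes overlapped between groups, at 103 to 189 CPM under Ad-Lib and 84.1 to 162 CPM under TAN. The sum over 7 marginal zone genes, Hes1 among them, also overlapped (710 to 1987 and 620 to 1376 CPM), but 1 gene carried most of it in Ad-Lib 1, where Mzb1 was at 1943 CPM and Cr2 at 7.25 CPM, so the sum does not describe the list. As background for the gate as a whole, with nothing read from it for the members, edgeR called 0 of 7881 genes (0%), with 154 at an unadjusted p under 0.05, and DESeq2 called 0.

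T cells, another gate tested after the data had been seen, were the other source of Dtx1, with 455 UMIs. They had 2.69, 23.7, 4.17 and 3.10 CPM under Ad-Lib and 11.96, 15.9, 20.5 and 28.6 CPM under TAN. All TAN libraries were above 3 of the Ad-Lib libraries, and Ad-Lib 3 was above all but TAN 8. The log2 change was 0.70 ± 0.47 (edgeR adjusted p = 0.426). Without Ad-Lib 3 it was 2.71 (edgeR adjusted p = 0.00117). Ad-Lib 1, 5 and 7 then stood for the Ad-Lib group, with only 2, 4 and 2 Dtx1 UMIs. These counts are near the floor, and the gene passed the filter on low counts through the TAN libraries, so nothing is read from that call. B cell RNA in ratio to the B panel would give 0.0523 to 7.08 CPM of Dtx1 in T cells, the highest in Ad-Lib 7, where it exceeds the measured 3.10 CPM. Ighm made up most of that panel in T cells, at means of 1916.5 CPM under Ad-Lib and 169.8 CPM under TAN. No other gene of the panel exceeded 17.5 CPM in a library, so the estimate rests mainly on Ighm. In the 1980 of 4044 T cells without a B panel UMI, Dtx1 was at 9.86 ± 9.69 CPM under Ad-Lib and 16.9 ± 6.11 CPM under TAN (SD, n = 4 each), with Ad-Lib 3 again high at 24.0 CPM.

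Notch2 was lower in TAN T cells, at 31.0, 19.8, 37.6 and 27.9 CPM under Ad-Lib and 9.97, 11.5, 12.7 and 16.6 CPM under TAN, without overlap. The log2 change was -0.98 ± 0.20, or 1.97-fold (edgeR adjusted p = 0.0172), in a gate where 4.65% of 8954 genes were called. It was the only 1 of 3 members called, and the call was lost without Ad-Lib 1, 5 or 7 or TAN 4 or 6 (adjusted p 0.0529 to 0.0695), as was that of Rbpj below (0.0540 to 0.0773). Rbpj was the 1 further pathway gene of 34 (2.94%, below the 4.65% of all genes) called in T cells, at 120, 85.5, 212 and 144 CPM under Ad-Lib and 81.0, 50.5, 45.7 and 66.9 CPM under TAN (log2 -1.05 ± 0.22, edgeR adjusted p = 0.0198). Furin and Aph1a, a gamma-secretase subunit, changed by -0.73 ± 0.28 and -0.49 ± 0.19 (adjusted p = 0.15 and 0.158).

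Myeloid genes moved with Notch2 and Rbpj in the T gate. The 8 myeloid panel genes took 0.0436 to 0.119% of UMIs under Ad-Lib and 0.0160 to 0.0377% in TAN T cells, and 8 of 8 had a lower TAN mean. Most of the panel was Fcer1g (means of 338 CPM under Ad-Lib and 99.6 CPM under TAN), Tyrobp (287 and 77.8 CPM) and Lyz2 (203 and 53.9 CPM). C1qa, C1qb, Csf1r, Adgre1 and Cd68 had Ad-Lib means of at most 16.9 CPM. Values based on this panel thus rest mainly on Fcer1g, Tyrobp and Lyz2, and which cells made these transcripts was not tested. Macrophage RNA in ratio to that panel would give 2.14 to 8.03 CPM of Notch2 under Ad-Lib and 0.982 to 2.73 CPM in TAN T cells. B cell RNA, in ratio to the B panel, would give 8.50 CPM of Notch2 in Ad-Lib 7 and 0.125 to 1.28 CPM in the other 7 libraries, and that panel took 0.00949 to 0.495% of T cell UMIs under Ad-Lib and 0.0127 to 0.0223% under TAN. Ighm made up most of the B panel there, and 4 of 8 panel genes had a lower TAN mean, so the estimate from B cells rests mainly on Ighm. In T cells without any myeloid panel UMI, Notch2 was at 20.1 ± 6.07 and 11.2 ± 2.53 CPM (SD, n = 4 each), a ratio of 0.555 between TAN and Ad-Lib, with ranges of 14.0 to 26.9 and 9.66 to 14.9 CPM. Those ranges overlapped. The digestion list was at 0.383 to 0.730% of T cell UMIs under Ad-Lib and 0.258 to 0.409% under TAN, and the median mitochondrial share was 2.08 to 2.82% and 2.93 to 3.55%, without overlap. The part of these in the Notch2 and Rbpj calls was not tested. The gate held 102 to 480 T cells per Ad-Lib and 251 to 1574 per TAN library, and the makeup of T cell states was not tested. Notch1 in T cells was at 47.7 ± 12.1 and 49.6 ± 8.76 CPM (log2 0.20 ± 0.15, edgeR adjusted p = 0.48).

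**Figure D5:**
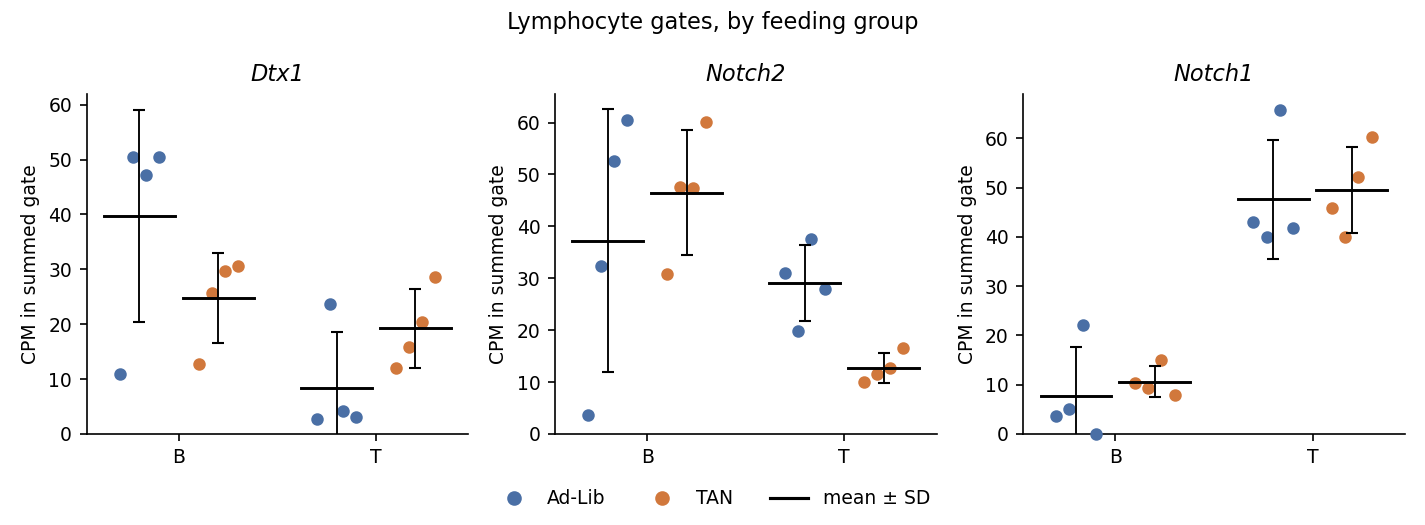
Dtx1, Notch2 and Notch1 in the summed B and T cells, in CPM, 1 point per library, with mean and SD over 4 libraries, the SD bars cut at 0. In B cells, Ad-Lib 1 is the low Dtx1 and Notch2 point, and in T cells, Ad-Lib 3 is the high Dtx1 point and Notch2 does not overlap between groups.

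Macrophages, added in the same way, carried Notch2 (94.8 ± 17.5 and 96.3 ± 16.7 CPM, log2 0.04 ± 0.12) and Notch1 (83.9 ± 7.85 and 65.4 ± 13.5 CPM, log2 -0.38 ± 0.12; SD, n = 4 each; edgeR adjusted p = 0.938 and 0.161). There 0 of 4 members and 0.272% of 9909 genes were called, with 1 member and 12.2% of genes at an unadjusted p under 0.05, and DESeq2 called 0 members and 0.313% of genes. Of the further pathway genes, 0 of 38 were called, and those with the smallest p were Dtx3l (-0.34 ± 0.08), Tle1 (0.71 ± 0.18) and the gamma-secretase subunit Aph1c (-0.50 ± 0.14), at edgeR adjusted p of 0.101, 0.118 and 0.161.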

How the data were processed

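Single-cell libraries of stromal vascular cells were analysed from count tables. The authors deposited raw UMI counts per gene and barcode, made with Cell Ranger on mm10 (GRCm38) from exonic reads. The processing notes name version 3.0.2 and the file headers 6.0.1. No normalization had been applied. The study's limits on cells were applied (UMIs 700 to 30000, genes 200 to 8000, mitochondrial share at most 10%), and doublets were not removed. Marker gates replaced clusters. Counts were summed per library and gate and tested with edgeR 4.0.16 (TMM, filterByExpr, quasi-likelihood; R 4.3.3), with DESeq2 1.42.0 as an alternative, and adjusted over all genes tested. The SE of an edgeR log2 change was derived from the quasi-likelihood F statistic, as the absolute change divided by the root of F. The 95% intervals took a normal multiplier of that SE, so with few libraries they may be too narrow. The pipeline was tested on simulated data. The members, gates and lists were chosen with earlier results of these data known. The genes named are the 10 members, further pathway genes that were called (where fewer than 3, also those with the smallest p, up to 3) and the 3 most similar genes per member, and others were named after their values were seen. Some pathway genes that this rule names are not reported here. Lymphatic cells (at most 5 per library) were not described. Total counts per library and gate limit the precision.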

Additional observations from a re-analysis of the deposited data

Results flagged for a closer look

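Outside the B gate, in 15 of 92 groups of 4 libraries, 1 library stood apart from the other 3 by Dixon's criterion, which chance does in about 1 in 20 groups. In vessels, these were Hes1 in capillaries (Ad-Lib 1 at 397 CPM, others 476 to 490) and in arteries (TAN 6 at 182 CPM, others 283 to 292), Dll4 in arteries (Ad-Lib 1 at 212 CPM, others 266 to 270.0), Dll1 in capillaries (Ad-Lib 5 at 34.8 CPM, others 18.0 to 18.7), Notch3 in capillaries (TAN 8 at 25.6 CPM, others 12.4 to 14.2) and Notch2 in mural cells (TAN 4 at 38.6 CPM, others 21.2 to 24.0). In all progenitors, they were Notch3 (TAN 6 at 16.9 CPM, others 27.9 to 29.0) and Jag1 (Ad-Lib 3 at 36.2 CPM, others 42.5 to 43.5). In Icam1+ progenitors, TAN 6 stood apart for Notch3 (30.8 CPM, others 49.4 to 52.1) and Notch1 (37.7 CPM, others 32.1 to 32.8). In Dpp4+ progenitors, TAN 6 was low for Notch2 (59.6 CPM, others 94.0 to 98.4) and Ad-Lib 5 high for Notch1 (3.67 CPM, others 1.56 to 1.83). Among immune cells, they were Dtx1 in T cells (Ad-Lib 3 at 23.7 CPM, others 2.69 to 4.17), Notch1 in T cells (Ad-Lib 5 at 65.7 CPM, others 40.0 to 43.1) and Notch2 in macrophages (TAN 4 at 71.6 CPM, others 101 to 107). Dtx1 in B cells, the value behind its choice, is given only as a description, with Ad-Lib 1 at 10.9 CPM and the other Ad-Lib libraries at 47.1 to 50.5 CPM.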

How the results depend on the processing

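No paired analysis was possible because Ad-Lib and TAN libraries share no replicate number. For 59 results on members, Nrarp, Rbpj, Tle1 and Lfng, 896 values were computed under other settings, of which 841 kept their side of the threshold, 36 lost a call, 19 gained one and 0 called values reversed; small changes that were called in neither setting could differ in sign. Members called without 1 library ranged from 0 to 2 in arteries (1 with all), 0 to 2 in T cells (1), 0 to 1 in Icam1+ progenitors (2), 0 to 1 in all progenitors (0) and 4 to 5 between arteries and capillaries (4). Without the filter on low counts, 1 member (Dll1) was called in capillaries (2.30% of all genes called) and 2 (Hes1 and Notch3) in arteries (2.51%). A stricter gate gave 2 in arteries (2.11%) and 1 in Icam1+ progenitors (1.503%), other limits for the arterial gate gave 0 (1.33%), no cell filter gave 0 in Icam1+ progenitors (1.42%), and DESeq2 gave 1 in progenitors (1.22%). No minimum change gave 7 of 8 between arteries and capillaries, where it called 18.8% of all genes.

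Genes called over the whole table moved by more than 1.5 times as follows. Without the filter on low counts there were 401 in capillaries (238 as reported), 419 in arteries (194), 194 in mural cells (110), 151 in progenitors (67), 1 in B cells (0), 842 in T cells (416), 121 in macrophages (27), 118 in Dpp4+ (35) and 307 in Icam1+ progenitors (171). Without a minimum change there were 404 in capillaries, 294 in arteries, 102 in progenitors, 300 in Icam1+ progenitors and 1829 between arteries and capillaries (662). DESeq2 called 55 in mural cells, 151 in progenitors and 66 in Dpp4+ progenitors, the stricter gate left 42 in mural cells, and other limits left 99 in arteries. Leaving out 1 library gave 139 to 265 in capillaries, 118 to 273 in arteries, 36 to 170 in mural cells, 18 to 129 in progenitors, 75 to 1165 in T cells, 10 to 38 in macrophages, 2 to 93 in Dpp4+ and 88 to 198 in Icam1+ progenitors. The log2 ratio of Dtx1 in B cells lay between -0.997 and -0.47 when 1 library was left out. The cause of these shifts was not tested.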

Other observations

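Other genes of the pathway had lineages of their own, given here as levels with no test and chosen after their values were seen. Rbpj, the DNA-binding partner of Notch, was highest in macrophages (356, 395 and 448 CPM as the lowest, median and highest of 8 libraries), dendritic cells (268, 345 and 429 CPM) and Dpp4+ progenitors (208, 233 and 295 CPM), and lower in capillaries (38.2, 47.7 and 61.7 CPM). Heyl, a repressor of the Hey family, had 63.3, 166 and 187 CPM in pericytes (7 libraries), a median of 121 CPM (highest 162) in smooth muscle and 25.4, 48.9 and 59.4 CPM in Icam1+ progenitors, gates that also held Notch3. Jag2 was an endothelial ligand, with 85.8, 118 and 163 CPM in arteries and 65.3, 81.1 and 92.8 CPM in capillaries.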
